A study of Mus musculus with 6 samples.

Results

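The AP-3 adaptor complex was followed through the genes of its subunits in embryonic mouse hearts with and without the RNA-binding protein genes Rbpms and Rbpms2. All 7 subunit genes were found by symbol among the 48709 genes of the deposited table: Ap3d1, Ap3b1, Ap3b2, Ap3m1, Ap3m2, Ap3s1 and Ap3s2. The family was chosen by the measured log2 fold change of one of them, Ap3b2, in the comparison of double knockout with control, so its values between genotypes are a description and not an independent test. PolyA RNA of C57BL6/J hearts was sequenced in 3 libraries of double knockouts and 3 of littermate controls. Double knockouts were homozygous for floxed alleles of both genes and carried a Cre transgene, named XML Cre in the labels, for deletion in cardiomyocytes. Controls were homozygous for the same floxed alleles, and the labels name no Cre for them, so effects of Cre and of losing the genes cannot be told apart. The sources used here give neither the embryonic stage nor the number of animals behind a library. P-values therefore measure only the spread between these libraries, which may be technical between libraries 1 and 2 of a genotype. Library 3 of each genotype differed from these in sex pattern (below), and sex was not part of the main fit.

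AP-3 is a coat complex of a delta, a beta, a mu and a sigma subunit that picks membrane proteins at endosomes and sends them to lysosomes and to lysosome-related organelles such as melanosomes and platelet dense granules. Delta is encoded by Ap3d1 alone, while beta, mu and sigma each have a pair of paralogs. Ap3b1 and Ap3m1 serve the form found in most cells, and Ap3b2 and Ap3m2 are known for the form of neurons, which works in making synaptic vesicles. In mice the pearl mutation lies in Ap3b1 and the mocha mutation in Ap3d1, and both alter coat colour and platelets.

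Values are taken as read counts scaled per library and rounded by the authors, and are called normalised read counts here. Library sums ran from 19770390 to 20215282, and 1 unit stood for about 1 read, since the estimated scale factors were 0.899 to 1.06. Both targeted genes were lower in the double knockouts: Rbpms had 721, 699 and 670 in double knockouts against 3551, 3853 and 3956 in controls, and Rbpms2 had 1676, 1257 and 1429 in double knockouts against 2444, 2571 and 2716 in controls. Xist, the RNA of the inactive X chromosome, was at 20 in double knockout 3 and 6 in control 3, against 19501 to 25229 in the other libraries, and the Y-linked gene Eif2s3y was at 1569 and 1207 in those 2 libraries, against 0 to 4 in the others. The third library of each genotype therefore had a male pattern, and the rest a female one. Cardiomyocyte markers fitted the labelled tissue, with a summed level of 554931 to 632385 over 8 markers in double knockouts and 693398 to 764659 in controls.

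Which reads can be told apart between these genes bears on each value below, since reads of 75 bases were counted by gene. The coding sequences of Ap3b1 and Ap3b2 were identical at 66.7% of 3198 aligned bases, those of Ap3m1 and Ap3m2 at 73.3% of 1257, and those of Ap3s1 and Ap3s2 at 74.4% of 582. No 75-base window of Ap3b1, Ap3d1 or Ap3m2 occurred in an annotated transcript of another gene. The most alike ungapped stretch of the beta pair, shown because it is where reads of the beta paralogs come closest, spans coding bases 548 to 622 of Ap3b2 and 563 to 637 of Ap3b1. Capitals mark the 9 bases of Ap3b2 that differ from Ap3b1 (transcripts of GENCODE M21, GRCm38).
Ap3b2: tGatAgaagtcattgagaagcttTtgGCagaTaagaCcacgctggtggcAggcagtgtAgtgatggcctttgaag
Ap3b1: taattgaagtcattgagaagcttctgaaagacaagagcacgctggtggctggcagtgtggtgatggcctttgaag

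The mu pair differed in the same way, but Ap3m1 has a pseudogene on chromosome 10, Ap3m1-ps, that matched its coding sequence at 1251 of 1257 bases. The stretch below is coding bases 154 to 228 of Ap3m1, chosen as the window held in full by the pseudogene in which Ap3m2 is most alike. Capitals mark the 14 bases of Ap3m2 that differ from Ap3m1.
Ap3m1: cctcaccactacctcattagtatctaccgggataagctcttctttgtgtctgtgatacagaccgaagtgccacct
Ap3m1-ps: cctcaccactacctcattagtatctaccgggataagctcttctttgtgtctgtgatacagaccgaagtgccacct
Ap3m2: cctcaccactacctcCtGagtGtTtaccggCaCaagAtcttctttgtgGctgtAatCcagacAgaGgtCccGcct

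Ap3b2, the beta subunit of the neuronal form (chromosome 7, 81460399 to 81493925, minus strand, mm10), was the member that stood apart. It had normalised read counts of 59, 20 and 46 in double knockouts 1 to 3, against 163, 192 and 294 in controls 1 to 3. The highest double knockout stayed below the lowest control, which was 2.76 times as high. Means were 41.7 ± 19.9 in double knockouts and 216 ± 68.8 in controls (SD, n = 3 each), and the mean in controls was 5.19 times that in double knockouts. The log2 fold change (log2(value + 1) of double knockouts less that of controls, fitted by limma over all genes) was -2.43 ± 0.45 (SE). Ap3b2 reached a mean of 50 in controls alone. Among 14016 genes with a mean of at least 50 in a genotype, 7 had a lower log2 fold change. These are the values for which the gene was noticed. Its share of the beta pair and its likeness to other genes below rest on the same values and are descriptions too. In whole hearts, fewer cells of a type and less RNA per cell cannot be told apart.

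Libraries of one genotype differed more in Ap3b2 than in any other member. Its coefficient of variation was 47.7% in double knockouts and 31.8% in controls, while the other 6 members lay between 3.33% and 12.5% in double knockouts and between 0.367% and 7.09% in controls. Double knockout 2 was the lowest of its genotype and control 3 the highest of the controls. The fold change stayed between -2.75 and -1.99 when any 1 library was left out. With all libraries, its limma adjusted p (Benjamini-Hochberg) was 0.0471, just under the threshold of 0.05. The call was lost without control 1, control 2, control 3 or double knockout 3, with limma adjusted p of 0.0584, 0.102, 0.0525 and 0.0805. Without both libraries numbered 3, which leaves the female pattern alone, the fold change was -2.33 (adjusted p = 0.164).

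**Figure D1:**
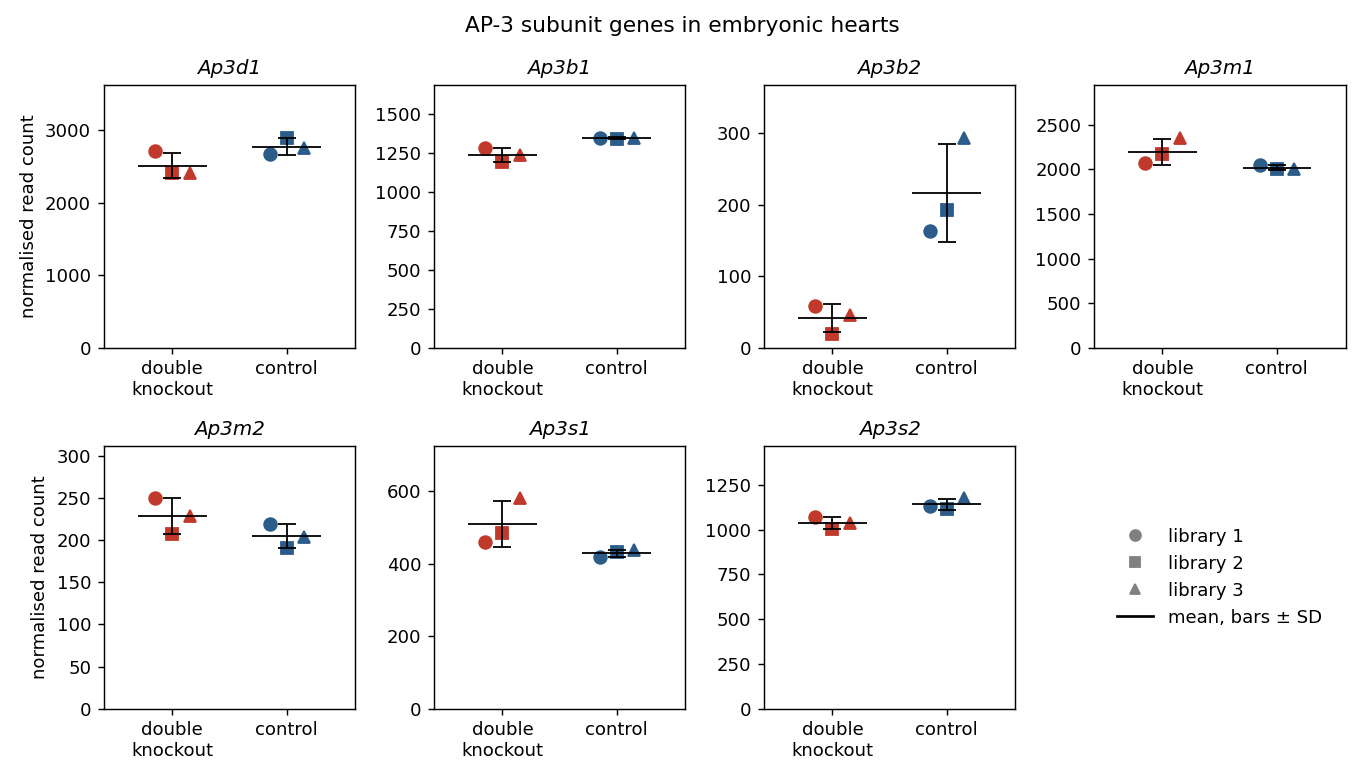
Normalised read counts of the 7 AP-3 subunit genes in each library, double knockouts in red to the left of controls in blue, with one marker shape per library number; lines and bars are mean ± SD, each axis starts at 0 and axes differ between genes. Ap3b2 lies at 20 to 59 in double knockouts and 163 to 294 in controls, while the other genes differ by far less.

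Ap3b1, the beta subunit of the ubiquitous form (chromosome 13, 94358960 to 94566317, plus strand, mm10), differed little between genotypes. It had 1280, 1193 and 1237 in double knockouts, against 1349, 1340 and 1348 in controls. The groups did not overlap, with the controls very close together, and the log2 fold change was -0.12 ± 0.08 (SE; limma adjusted p = 0.453). Across all 26747 genes tested, groups did not overlap in 21.7%. Ap3b1 was thus not higher where Ap3b2 was lower.

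The share of Ap3b2 in the beta pair was lower in every double knockout than in any control. Counted per kilobase of annotated exons, Ap3b2 made up 3.22%, 1.20% and 2.62% of the beta pair in double knockouts 1 to 3, against 8.03%, 9.38% and 13.6% in controls 1 to 3. The mean share was 2.35 ± 1.04% in double knockouts and 10.3 ± 2.91% in controls (SD, n = 3 each), a difference of -8.00 percentage points. Divided by the longest transcript in place of all annotated exons, the difference was -11.0 points. The pair summed to 278.5 ± 12.7 per kilobase in double knockouts and 330.3 ± 11.2 in controls. A share within a library does not depend on library scaling, and 3 against 3 cannot go below an exact two-sided permutation p of 0.1, so no test was made. Shares of the 3 pairs were not corrected for trends of a library in GC content and transcript length.

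Ap3d1, the delta subunit that both forms share (chromosome 10, 80706956 to 80742264, minus strand), had 2714, 2415 and 2407 in double knockouts, against 2679, 2901 and 2750 in controls. Double knockout 1 lay inside the control range and the other 2 below it. The log2 fold change was -0.15 ± 0.09 (SE; limma adjusted p = 0.377). With the trend of each library in GC content and transcript length removed, it was -0.05.

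The mu subunits did not follow Ap3b2. Ap3m2, which pairs with Ap3b2 in the neuronal form (chromosome 8, 22787354 to 22805622, minus strand), had 250, 208 and 229 in double knockouts, against 220, 191 and 204 in controls. The groups overlapped, and the log2 fold change was 0.16 ± 0.12 (SE; limma adjusted p = 0.521). Ap3m1 (chromosome 14, 21031442 to 21052508, minus strand) had 2070, 2176 and 2358 in double knockouts, against 2053, 2008 and 2002 in controls. Each double knockout lay above each control, though the nearest libraries were almost level, with a log2 fold change of 0.12 ± 0.08 (SE; limma adjusted p = 0.467). It was -0.01 with the GC and length trend removed. Ap3m2 made up 15.8%, 12.9% and 13.1% of the mu pair in double knockouts and 14.2%, 12.9% and 13.6% in controls, per kilobase. These shares overlapped, where the shares of the beta pair did not.

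The sigma genes had small values of opposite sign, and neither passed the test. Ap3s1 (chromosome 18, 46741876 to 46790826, plus strand) had 459, 485 and 580 in double knockouts, against 417, 431 and 437 in controls, without overlap; double knockout 3 was the highest. Its log2 fold change was 0.24 ± 0.10 (SE; limma adjusted p = 0.218), and 0.14 without double knockout 3. Ap3s2 (chromosome 7, 79875325 to 79920649, minus strand) had 1071, 1002 and 1036 in double knockouts, against 1131, 1116 and 1175 in controls. These groups did not overlap either, and the log2 fold change was -0.14 ± 0.08 (SE; limma adjusted p = 0.394). Ap3s2 made up 48.7%, 45.6% and 42.1% of the sigma pair per kilobase in double knockouts, against 52.4%, 51.3% and 52.2% in controls. The difference in mean share was -6.52 points, with the groups apart. GC content, for which this share was not corrected, was 40.9% for Ap3s1 and 50.2% for Ap3s2.

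Of the 7 members, 0 rose and 1 fell at an adjusted p under 0.05, and the fall was that of Ap3b2, for which the family was chosen. Over all genes tested 4.86% were called, 2.31% higher and 2.55% lower. The median log2 fold change of the members was -0.12, with 3 above and 4 below 0, against 0.02 over all genes. Their groups did not overlap in 5 of 7 genes, 2 higher and 3 lower, where 11.1% of all genes lay apart with the double knockout higher and 10.6% with it lower. The 6 members other than Ap3b2 were called by limma under 0 of 17 alternative settings, voom weights included, with a lowest limma adjusted p of 0.128. In the limma fit across all genes, Ap3s1 alone of the 6 passed 0.05 before adjustment. The share of all genes that passed 0.05 before adjustment is not given here. Counts at that cut-off, here and below, therefore have no background, and 4.86% does not stand in for it.

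**Figure D2:**
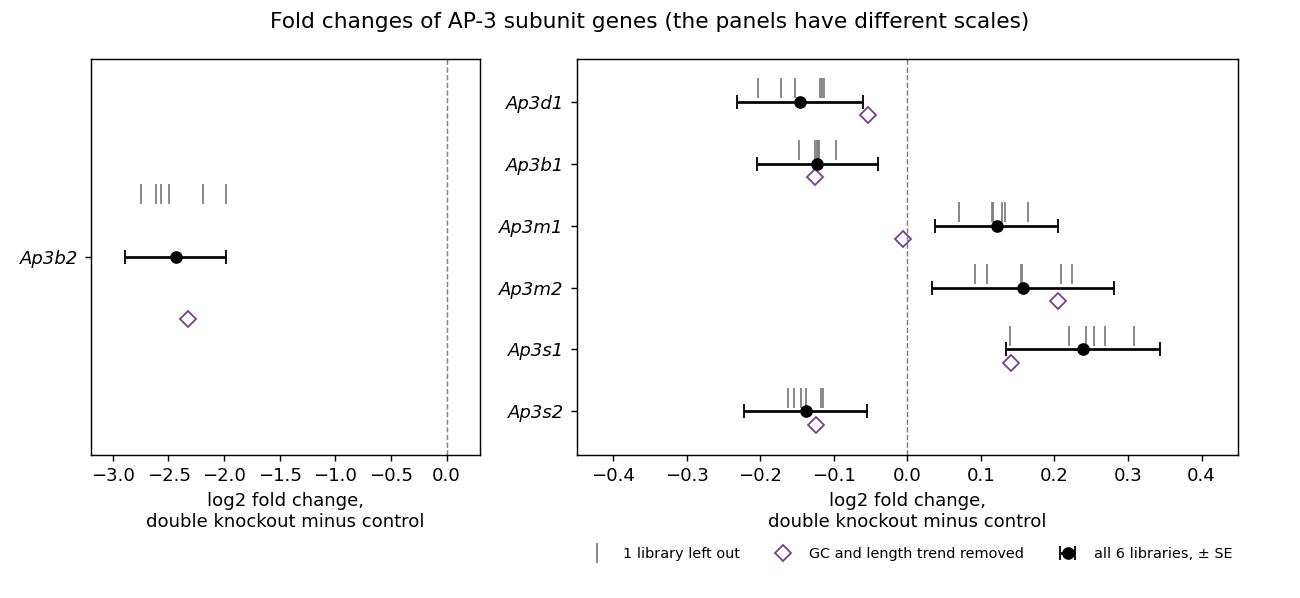
Log2 fold changes (double knockout minus control) of each AP-3 gene from the fit across all genes, with SE bars, the values with 1 library left out as grey ticks and the value with the GC and length trend removed as a diamond; the left panel has a wider scale. Ap3b2 lies near -2.43, and the other genes lie between -0.15 and 0.24, with Ap3m1 moving to -0.01 once the trend is removed.

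Base composition also differed between the libraries. Over 11905 genes, the deviation of a gene in a library ranked with its GC content at Spearman's rho of 0.127, -0.181 and -0.586 in double knockouts 1 to 3, against 0.278, 0.224 and 0.4 in controls 1 to 3, so each double knockout lay below each control. Ap3s1 and Ap3m1, the members with the lowest GC content at 40.9% and 42.1%, had values above 0. Ap3d1 and Ap3b2 had the highest at 55.3% and 55.6%. With the trend removed, Ap3s1 was at 0.14 and Ap3b2 at -2.33, so the value of Ap3b2 changed little and that of Ap3s1 was smaller. The other members were then at -0.13 (Ap3b1), -0.05 (Ap3d1), -0.01 (Ap3m1), 0.21 (Ap3m2) and -0.12 (Ap3s2), and 0 of these 5 were called by limma.

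Per kilobase of exons, Ap3m2 and Ap3b2 lay far below the other 5 genes. In double knockouts Ap3m1 averaged 313.8 ± 20.8 normalised reads per kilobase, Ap3d1 281.8 ± 19.6 and Ap3b1 271.9 ± 9.57 (SD, n = 3), with ranges that overlapped between each of these and the next. In controls Ap3d1 averaged 311.5 ± 12.7, Ap3b1 295.9 ± 1.09 and Ap3m1 288.1 ± 3.97, with ranges that did not overlap. The sigma genes followed, with Ap3s1 at 211.8 ± 26.6 and Ap3s2 at 175.5 ± 5.84 in double knockouts, and Ap3s1 at 178.5 ± 4.28 and Ap3s2 at 193.2 ± 5.19 in controls. Ap3s1 thus came above Ap3s2 in double knockouts and below it in controls. Ap3m2 was at 50.6 ± 4.64 in double knockouts and 45.3 ± 3.21 in controls. Ap3b2 was lowest, at 6.62 ± 3.16 per kilobase in double knockouts and 34.4 ± 10.9 in controls, and the control ranges of Ap3m2 and Ap3b2 overlapped. The order of the other 5 rests on the annotated length. Divided by the longest transcript, Ap3d1 averaged 522.8 in double knockouts and 577.9 in controls, well above Ap3b1 with 307.6 in double knockouts and 334.7 in controls and Ap3m1 with 327.0 in double knockouts and 300.2 in controls. On that scale Ap3s1 averaged 334.2 in double knockouts and 281.8 in controls, while Ap3s2 averaged 178.3 in double knockouts and 196.2 in controls.

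**Figure D3:**
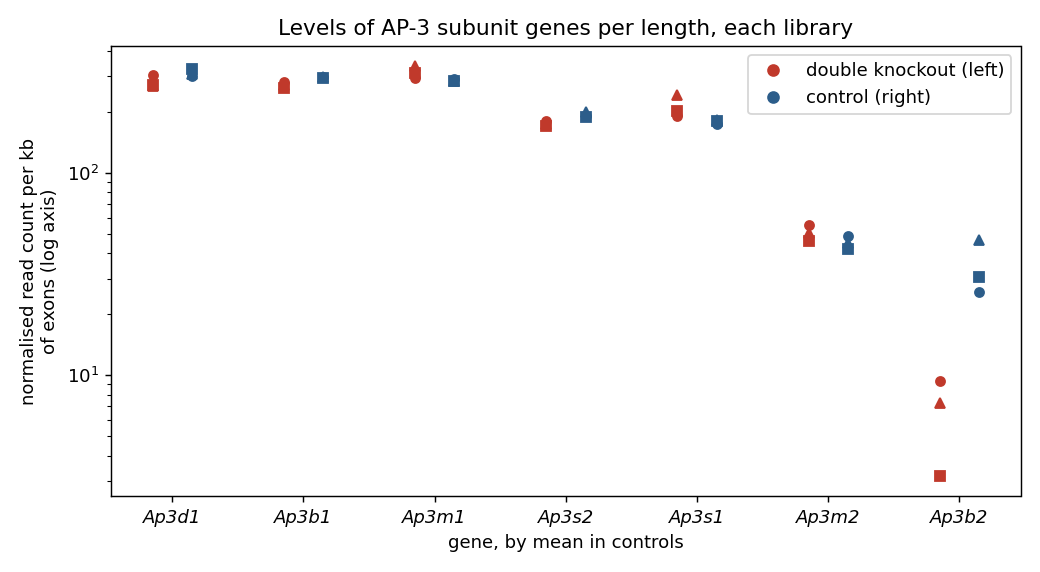
Normalised read count per kilobase of annotated exons for each AP-3 gene in each library on a log axis, double knockouts in red to the left of controls in blue, genes in the order of their control mean. Ap3m2 and Ap3b2 lie below the other 5 genes, and Ap3b2 in double knockouts lies between 3.18 and 9.38.

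**Figure D4:**
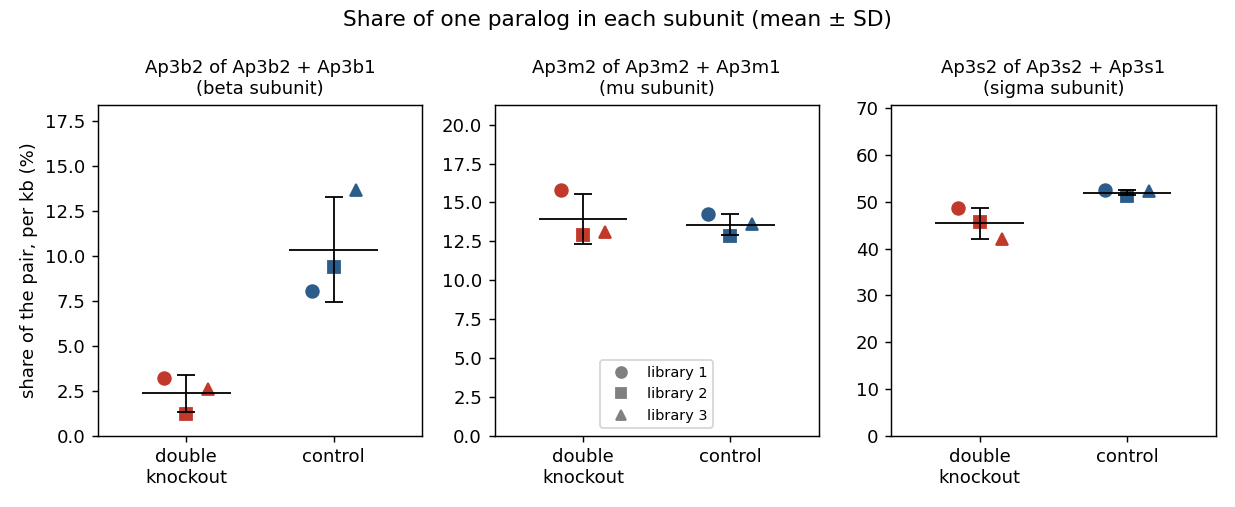
Share of one paralog in each AP-3 subunit pair, in percent of the pair's reads per kilobase, in each library, with mean ± SD; axes start at 0 and differ between panels. The Ap3b2 share is 1.20% to 3.22% in double knockouts and 8.03% to 13.6% in controls, the Ap3m2 share overlaps between genotypes, and the Ap3s2 share is 42.1% to 48.7% in double knockouts and 51.3% to 52.4% in controls.

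Pseudogenes and overlaps limit the values of Ap3m1 and Ap3s1. Ap3m1-ps was listed at 762, 861 and 895 in double knockouts, against 773, 758 and 761 in controls, which is 36.8% to 39.6% of the Ap3m1 value in every library. Of its 75-base windows, 61.0% also occur in Ap3m1, and 722 of the 7218 windows of Ap3m1 occur in it. The Ap3s1 pseudogenes tracked their parent likewise: Ap3s1-ps1 stood at 47.8% to 52.9% and Ap3s1-ps2 at 34.3% to 39.0% of the Ap3s1 value over the 6 libraries. The sources used here do not say how reads that match both gene and pseudogene were counted, so the values of Ap3m1 and Ap3s1 are uncertain to that extent. The 3′ end of Ap3m1 overlaps that of Vcl, the vinculin gene on the opposite strand, by 2235 bases, and 28.0% of the windows of Ap3m1 lie there; the library kit was stranded, but the counting setting for strand was not given. Ap3b2 shared 4.49% of its windows with Gm45906, a model within its own locus on the same strand, and none with Ap3b1.

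The neighbours of Ap3b2 on chromosome 7 did not pass the test. Cpeb1, which encodes a regulator of mRNA polyadenylation and lies 4933 bases away, had 64, 48 and 65 in double knockouts, against 49, 72 and 60 in controls. BC048679, 349 bases away on the other side, was listed at 0 in every double knockout and 1 in every control. Over the nearest protein-coding gene on each side of the 7 members, 0 of 14 were called by limma, against 4.86% of all genes. With voom weights 0 were called. Of the 14, 2 had an unadjusted p under 0.05, Scamp1 beside Ap3b1 and Adk beside Ap3m1. The share of all genes at that unadjusted cut-off is not given here.

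The start regions of the beta pair differ in composition and are shown for that reason. These are the 250 bases before the annotated start from RefSeq (GRCm38.p6), with CpG dinucleotides in capitals. For Ap3b2 this is chr7:81493926-81494175 on the minus strand, and for Ap3b1 chr13:94358710-94358959 on the plus strand.
Ap3b2: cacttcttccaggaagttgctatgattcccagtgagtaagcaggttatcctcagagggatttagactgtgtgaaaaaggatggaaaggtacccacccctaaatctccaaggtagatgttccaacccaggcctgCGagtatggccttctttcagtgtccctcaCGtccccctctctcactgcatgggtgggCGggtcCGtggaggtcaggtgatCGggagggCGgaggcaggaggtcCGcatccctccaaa
Ap3b1: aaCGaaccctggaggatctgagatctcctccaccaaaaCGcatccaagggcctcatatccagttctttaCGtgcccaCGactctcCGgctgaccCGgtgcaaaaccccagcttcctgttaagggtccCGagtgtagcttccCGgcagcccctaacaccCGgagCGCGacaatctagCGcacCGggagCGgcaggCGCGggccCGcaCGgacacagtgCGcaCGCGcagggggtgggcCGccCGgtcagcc

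Ap3b2 held 7 CpG in this window and Ap3b1 held 23, against a median of 6 over 27025 promoters. The other members with an entry were Ap3d1 with 10, Ap3m1 with 19 and Ap3s2 with 15, so Ap3b2 had the fewest of the 5. The SP1 box GGGCGG, searched on both strands, occurred 2 times in Ap3b2, 1 time in Ap3b1 and 4 times in Ap3m1, and 32.9% of all promoters held it. The TATA box TATAAA, present in 13.0% of promoters, and the E-box CACGTG, present in 6.05%, were not found in these windows of the 5 genes. A match of letters is a description and not a binding site.

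RBPMS proteins are known to bind RNA at pairs of CAC trinucleotides, so these were counted in the longest coding transcript of each member, as consecutive CAC with 1 to 12 bases between them on the transcript strand. Ap3b2 held 8 such pairs, or 2.10 per kilobase, and 38.8% of 21405 coding genes held fewer per kilobase. Ap3b1 held 2.49 per kilobase, close to the median of 2.50. Ap3m2 had the most among the members with 4.10 and Ap3s1 the fewest with 0.66. By this count Ap3b2 lay below the median of 2.50. Other annotated exons and introns were not searched, and binding of RBPMS proteins to any member was not tested. The 30 coding bases of Ap3b2 with the most CAC, bases 1858 to 1887, hold 3, in capitals here.
Ap3b2: gaccatttccagctgggctCACtgtCACAC

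Since Ap3b2 is known from neurons, markers of the cell types that a heart can hold were read beside it. Over 16 neuron markers the summed level was 533, 688 and 518 in double knockouts, against 638, 670 and 639 in controls. These sums overlapped, but Gap43, a growth-cone gene, was the largest marker and differed little (0.01 on the log2 scale). Without it the other neuron markers summed to 298, 338 and 259 in double knockouts, against 355, 397 and 371 in controls, without overlap. Of all genes tested singly, 21.7% lay apart, which is not a background for a sum. Sums without the largest marker, here and below, were not planned. Of the 15 neuron markers tested, 10 had a log2 fold change below 0 and 4 above it, with a median of -0.18. By limma 0 of the 15 were called, 0 with voom weights, and 3 had an unadjusted p under 0.05, all lower. These were the RNA-binding protein gene Elavl3 (-0.99, without overlap), the synaptic vesicle gene Syt1 (-0.90) and the neurofilament gene Nefl (-0.49). No share of all genes at the unadjusted cut-off is given to set beside them. Levels were low, with a mean under 5 in 3 of the 16 and none at 0 in every library. Over 6 Schwann and neural crest markers the sums were 612 to 878 in double knockouts and 624 to 710 in controls, and all 6 had a log2 fold change above 0. Without Erbb3, the largest, the others summed to 260, 232 and 235 in double knockouts, against 212, 220 and 224 in controls. These sums lay apart too, with the double knockouts higher.

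Atrial and ventricular markers were mixed, and cardiomyocyte markers were mostly lower. The 6 atrial markers summed to 64373 to 68702 in double knockouts and 70970 to 88520 in controls. By gene 3 were lower and 3 higher. The atrial light chain gene Myl7 fell (-0.74), and Myl4 (-0.27) and Kcnj3 (-0.43) were below 0 without passing the test. Nppa (0.13), Sln (0.17) and Bmp10 (0.37) were above 0. Sln was near the floor, with 4, 16 and 1 in double knockouts against 4, 7 and 2 in controls. The 3 ventricular markers summed to 81715 to 98942 in double knockouts and 79086 to 95212 in controls, with 0 called by limma, 1 with voom weights and 2 at an unadjusted p under 0.05, 1 in each direction. Of the 8 cardiomyocyte markers, 6 had a log2 fold change below 0 and 2 above it. By limma 2 fell, the alpha-actin gene Actc1 (-0.52) and the alpha-myosin gene Myh6 (-0.82), where 2.55% of all genes fell. Tnnt2 (-0.17) and Nkx2-5 (-0.29) were lower without passing the test. All 4 had an unadjusted p under 0.05 and lay apart, where 10.6% of all genes lay apart with the double knockout lower. Another 4, Myh7, Myl3, Ttn and Tnni3, overlapped between genotypes. None of the atrial or cardiomyocyte markers was at 0 in every library. All 5 endothelial markers were above 0, and 1 was called by limma, Emcn (0.38, limma adjusted p = 0.0335), where 2.31% of all genes rose. All 6 blood markers were above 0, and 0 were called. Of 8 fibroblast and epicardial markers 5 were above 0 and 3 below, and of 3 melanocyte markers tested 1 was above and 2 below, with 0 called in these sets. The part of any of these markers in the value of Ap3b2 was not tested.

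Libraries were ordered for Ap3b2 as double knockout 2, 3 and 1 and then controls 1, 2 and 3, from low to high. Across the 6 libraries Ap3s2 (Pearson's r = 0.982) and Ap3b1 (0.972) correlated most closely with Ap3b2 among the members, though neither kept its order within the controls. Ap3d1 was at 0.818, and Ap3m2 (-0.405), Ap3s1 (-0.656) and Ap3m1 (-0.717) ran the other way. Among 11442 other coding genes with a mean level of 50 or more, 6.14% had r above 0.9. The 8 most like Ap3b2 were Adra1b, the alpha-1B adrenergic receptor gene (0.999), the proline catabolism gene Aldh4a1 (0.997), Mycn (0.995), Fhl2 (0.994), the complex I assembly gene Ndufaf6 (0.994), the NAD synthesis gene Nmnat3 (0.994), the mitotic ubiquitin-conjugating gene Ube2c (0.994) and the paraspeckle gene Pspc1 (0.991). The 4 least like were the complement factor H-related gene Cfhr2 (-0.995), the antiproliferative gene Btg2 (-0.995), the calcium entry regulator gene Saraf (-0.994) and the calmodulin-dependent kinase gene Camk4 (-0.992). These values share the genotype contrast and the libraries' depth and composition, and are a description without a test. Adra1b had 153, 122 and 143 in double knockouts, against 191, 195 and 221 in controls, so it followed the order of Ap3b2 over a far narrower range.

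Genes that work beside AP-3 mostly did not pass the test. Of 61 measured genes in lists of other adaptor complexes, the BLOC, HOPS and CORVET complexes, recruitment factors and cargo, 3 rose and 0 fell, which is 4.92% against 4.86% of all genes, and the median log2 fold change was 0.03. Among 13 subunits of AP-1 and AP-2, the adaptors of the trans-Golgi network and the plasma membrane, 1 rose and 0 fell, with a median of -0.09, and 5 had an unadjusted p under 0.05. Besides the 1 that rose, these were Ap1m1 (-0.22), Ap1s1 (-0.19), Ap2a1 (-0.27) and Ap2m1 (-0.20), all below 0 and named after their values were seen. The share of all genes at that unadjusted cut-off is not given, so the 5 have no background. Without double knockout 1, Ap2a1 was the 1 gene of this list called (-0.42, limma adjusted p = 0.0154). Ap1s3, a sigma subunit of AP-1, had 87, 65 and 110 in double knockouts, against 41, 54 and 55 in controls (0.77 ± 0.21 SE, limma adjusted p = 0.0379). Its call was lost without double knockout 1 or 3 or any 1 control (adjusted p = 0.0640 to 0.233), without the robust option (adjusted p = 0.144), on removal of the composition and length trend (adjusted p = 0.0746), and without both libraries numbered 3 (adjusted p = 0.443).

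None of 8 subunits of AP-4 and AP-5 was called by limma, with or without voom weights. The same held for 15 genes listed with the BLOC complexes, which act in making lysosome-related organelles, Rab32 and Rab38 included. It also held for 10 genes listed with HOPS and CORVET, the tethers of endosomes and lysosomes, Vps33b and Vipas39 included. At an unadjusted p under 0.05 there were 0 of the AP-4 and AP-5 genes, 4 of the BLOC genes and 1 of the HOPS and CORVET genes, again without a background share. Among these were Hps3 (log2 fold change 0.35, limma adjusted p = 0.0647), Dtnbp1 (-0.30, limma adjusted p = 0.0959) and Vps18 (-0.26, limma adjusted p = 0.162), named after their values were seen. Of 7 recruitment and coat genes 0 were called by limma, 0 with voom weights and 0 at an unadjusted p under 0.05, with a median log2 fold change of -0.02. Arf1, the GTPase that brings AP-3 to membranes, averaged 7333 in double knockouts and 7650 in controls, and the clathrin heavy chain gene Cltc 12500 in double knockouts and 12590 in controls.

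Among 8 measured cargo genes of AP-3, 2 rose and 0 fell, where 2.31% of all genes rose and 2.55% fell, and the median log2 fold change was 0.25. Lamp2, an X-linked gene of a lysosomal membrane glycoprotein, had 3725, 4656 and 5111 in double knockouts, against 2953, 2965 and 2740 in controls. Every double knockout lay above every control, with a log2 fold change of 0.63 ± 0.10 (SE; limma adjusted p = 0.000877). The call was kept with each single library left out (adjusted p up to 0.0226) and lost without the robust option (adjusted p = 0.0578) and without both libraries numbered 3 (adjusted p = 0.272). Clcn3, an endosomal chloride and proton exchanger, had 1749, 1794 and 2118 in double knockouts, against 1453, 1592 and 1410 in controls (0.34 ± 0.09 SE, limma adjusted p = 0.0385), and its call was less firm. It was lost without double knockout 3, control 1 or control 3 (limma adjusted p = 0.189 to 0.225), without both libraries numbered 3 (adjusted p = 0.510) and without the robust option (adjusted p = 0.126). Removing the trend in GC and length (adjusted p = 0.0590) or adding the replicate block (adjusted p = 0.0631) ended it too. Scarb2, which encodes another lysosomal membrane protein, missed the threshold (0.28, limma adjusted p = 0.0657) and passed it with voom weights (adjusted p = 0.0453); it was named after its values were seen. Lamp1, the paralog of Lamp2, averaged 5469 in double knockouts and 5483 in controls.

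**Figure D5:**
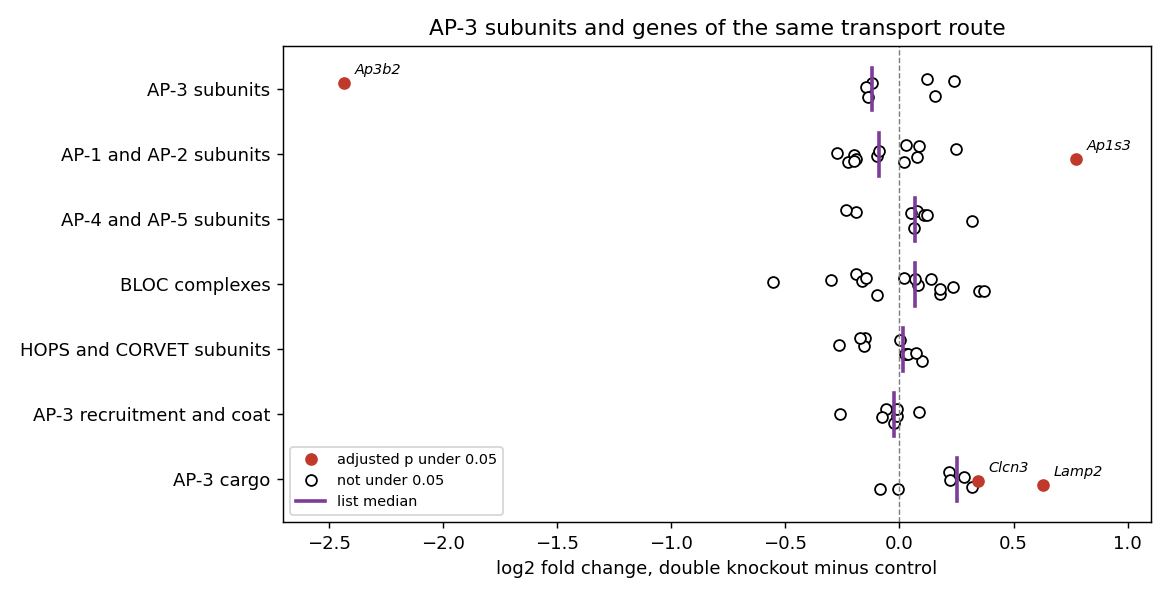
Log2 fold changes (double knockout minus control) of the AP-3 subunit genes and of 6 lists of genes in the same transport route, one circle per gene, filled where the adjusted p is under 0.05, with purple lines at list medians; vertical scatter within a list has no meaning. Ap3b2 lies far to the left of the others, and Ap1s3, Clcn3 and Lamp2 are the filled circles on the right.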

How the data were processed

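RNA was made into a stranded polyA library from 500 ng and read as single ends of 75 bases, per the labels' protocols. Per the submitters' processing notes, which give no roles, featureCounts 1.5.0, DESeq, DESeq2, STAR 2.4.2a, Trimmomatic and the build mm10 were used; the sources used here give no strand or multi-mapping setting. The authors deposited a score per gene and library, taken here as read counts scaled by one factor per library and rounded. Whole numbers missing below 400 point to this in double knockout 1 (22) and control 3 (20). The other libraries missed only 1 to 4. Scales were estimated at 0.899 to 1.06, so a value is near a read number, and single reads were not recovered. Genes with a mean of at least 1 in a genotype were tested on log2(value + 1) with limma 3.58.1 in R 4.3.3, two-sided, its moderation robust and trended, adjusted by Benjamini-Hochberg over 26747 genes; the added 1 shrinks fold changes of weakly expressed genes.

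Members and lists were chosen with earlier results of these data known. Named were the members, the targeted genes, up to 3 called genes of each list, the 8 genes most and 4 least like Ap3b2, and nearest neighbours; cell type markers and the list genes Ap1m1, Ap1s1, Ap2a1, Ap2m1, Hps3, Dtnbp1, Vps18, Arf1, Cltc, Lamp1 and Scarb2 were named outside this rule after their values were seen. Of 62 listed genes 61 were measured; Vamp7 is not analysed here. Positions, lengths and transcripts came from GENCODE M21 (GRCm38, the assembly of mm10), which held 99.3% of the identifiers. Promoters came from RefSeq, for 5 of 7 members. Alternatives were pseudocounts, filters, rescaling, moderation, weights, GC and length correction (splines of 5 degrees of freedom), a replicate block and left-out libraries. Pearson's r between libraries was 0.983 to 0.986 within and 0.98 to 0.983 between genotypes.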

Additional observations from a re-analysis of the deposited data

How the results depend on the processing

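Ap3b2 stayed lower in double knockouts under all 17 alternatives (-2.75 to -1.99), and its call was lost under 5, those without control 1, 2 or 3, double knockout 3 or both libraries numbered 3. The other 6 members were called under none. Ap3m1 changed sign with the GC and length trend removed (-0.0061, limma adjusted p = 0.968). The count of 1299 genes called was 350 without the robust option, 38 without both libraries numbered 3 and 420 to 1253 with 1 library left out (420 without control 3, 481 without control 1, 496 without double knockout 3). The count of members called, 1, was 0 without both libraries numbered 3 and 0 to 1 with 1 library left out. That of the lists, 3, was 0 without the robust option, 0 without both libraries numbered 3 and 1 to 3 with 1 library left out (1 without double knockout 3, control 1 or control 3). The difference in Ap3b2 share of -8.00 points was -10.5 without division by length, -11.0 with the longest transcript and -9.16 to -6.36 with 1 library left out; for Ap3m2 it ranged from -0.58 to 0.85 and for Ap3s2 from -8.13 to -4.82. Of the 8 genes most like Ap3b2, 6 had Spearman's rho of 1, a value reached by 118 of the 11442 genes compared. By deviations from the group means, 1 of the 8 was among the 8 most like.

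Whether the replicate numbers pair the libraries was not settled. Deviations of same-numbered libraries correlated at 0.0517, 0.0697 and 0.329 for numbers 1 to 3. Those of library 1 of one genotype and library 2 of the other correlated at 0.171 and 0.17. Only libraries 3 share a male pattern. With the number as a block, 1355 genes, 1 member (Ap3b2, -2.43) and 2 list genes were called. Ap3b2 at 20 to 59 in double knockouts rests on few reads. The cause of lost calls was not tested.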
